A study of Saccharomyces cerevisiae with 6 samples.

Results

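The genes described here lie on the left arm of chromosome II of the budding yeast Saccharomyces cerevisiae, and they were followed in 3 strains with most attention to the genes that moved apart from their neighbours when EOS1 was deleted. Members were the genes whose systematic name starts with YBL and that had a probe set, 105 genes, less 17 that the rule leaves out: genes with symbols starting RPL, RPS or MRP, and COR1, ACH1, FUS3, SSA3, PRE7, ALG3, HTA2, HTB2, PRX1, ATP1 and UTP20. This left 88 of the 5449 genes on the array, each with 1 probe set. Of them 79 lay above the filter on dim probe sets, as did 4907 of all genes, and 9 lay below it and are described apart. The members were chosen because the arm as a whole was higher in the eos1 deletion, so everything about the eos1 deletion against the wild type is given as a description, with no test.

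Total RNA from log-phase cultures was measured on 6 Affymetrix arrays, 2 for each strain, from experiments that the series describes as independent. All 3 strains share the BY4741 background, a haploid of mating type a in which the marker genes HIS3, LEU2, MET17 and URA3 are inactive. The wild type carries no further deletion, 1 strain lacks EOS1, whose product sits in the membrane of the endoplasmic reticulum, and 1 lacks IZH2, whose membrane protein has been linked to zinc. All cultures grew in YPD, a rich medium, at 30 degrees Celsius and 150 rpm, and were harvested at an optical density of 1.0, with no added agent named. The labels do not say whether the arrays of a deletion strain come from 1 clone, nor how the genes were deleted.

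In the systematic naming of yeast genes, B stands for the second chromosome and L for its left arm, the number counts genes outwards from the centromere, and W or C gives the strand. The genes of an arm share a place and no common pathway: this arm holds genes for DNA replication, membrane traffic, mitochondria, tRNA charging and signalling side by side. DNA was not measured in these samples, so the copy number of the arm is not known from these data. In RNA from whole cultures, a change in every cell and a larger change in some of the cells cannot be told apart.

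Signals are the deposited intensities on a linear scale. Since the arrays differed in overall brightness (median signal of the genes above the filter 554 to 792), each array was centred on the median log2 signal of the genes of the other chromosomes, and differences and folds below are on that centred log2 scale. The strains matched their labels at the deleted genes: EOS1 had signals of 0.42 and 2.70 on the eos1 deletion arrays and of 600 to 836 on the other 4, and IZH2 had 3.46 and 1.12 on the izh2 deletion arrays and 1285 to 3543 elsewhere. LEU2, MET17 and URA3 lay at 29.2 or less on all arrays, whereas the HIS3 probe set gave 1269 to 2422. Of the mating type a markers MFA1, MFA2, STE2, STE6 and BAR1, all 5 were detected on every array and all 5 were lower on both eos1 deletion arrays than on all others. Of the alpha-cell markers, MF(ALPHA)1 was at 13.3 or less throughout, STE3 had 144 and 121 in the eos1 deletion against 38.3 to 77.1 elsewhere, and SAG1 had 450 and 386 against 204 to 268. STE3 lay below the filter, and the background signal of the first eos1 deletion array was 124, against 56.6 to 75.3 elsewhere. The part of these mating genes in the results below was not tested.

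The arm as a whole was higher in the eos1 deletion. The median member was 0.91 higher on the log2 scale than in the wild type, which is 1.88-fold, with quartiles of 0.69 and 1.12. Taken against the averaged wild type, the medians over members were 0.94 on either eos1 deletion array. On the izh2 deletion arrays the same medians were 0.06 and 0.07. The genes of the right arm had a median of 0.85 (quartiles 0.57 and 1.12, 256 genes) and those of the other chromosomes 0.01 (quartiles -0.22 and 0.23, 4555 genes). The 79 members above the filter lay above 0, from 0.03 for YBL028C to 1.83 for SEF1. So did 238 of the 256 right-arm genes and 2348 of the 4555 genes of other chromosomes. The filter uses the eos1 deletion arrays too, and this matters for a pair of members: SEF1 passed it only through its eos1 deletion signals, and YBL029W, the 1 member below 0 with no filter, was left out by it. With the filter on wild-type arrays only, YBL029W entered, SEF1 dropped out and 78 of 79 lay above 0. YBL028C lay at -0.02 with arrays centred on all genes above the filter and at -0.28 on leaving out either the first array of the eos1 deletion or the second wild-type array. Leaving out single arrays also took PET9 (the second eos1 deletion array), POP8 (the second wild-type array) and YBL111C and YBL112C (the first wild-type array) to 0 or below. Of the members 30 were at least 2-fold higher, 36 lay between 1.5-fold and 2-fold and 13 lay under 1.5-fold. These fold classes were not counted for other genes, so the counts have no background and describe the members only. The upper quartile of the log2 differences was 1.12 for the members and for the right arm, and 0.23 for the other chromosomes. Both eos1 deletion arrays lay above both wild-type arrays for 71 of the 79, against a background of 27.2% of all genes above the filter. The other 8 were YBL028C, PET9, POP8, YBL100W-A, HAP3, YBL111C, YBL029C-A and YBL112C, and 0 members had both arrays below the wild type, against 22.1% of all genes above the filter. Both eos1 deletion arrays exceeded all wild-type and izh2 deletion arrays for 68 of the 79 (86.1%), against 21.3% of all genes above the filter. URA7, FUI1 and YBL100W-B exceeded the wild type alone.

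**Figure D1:**
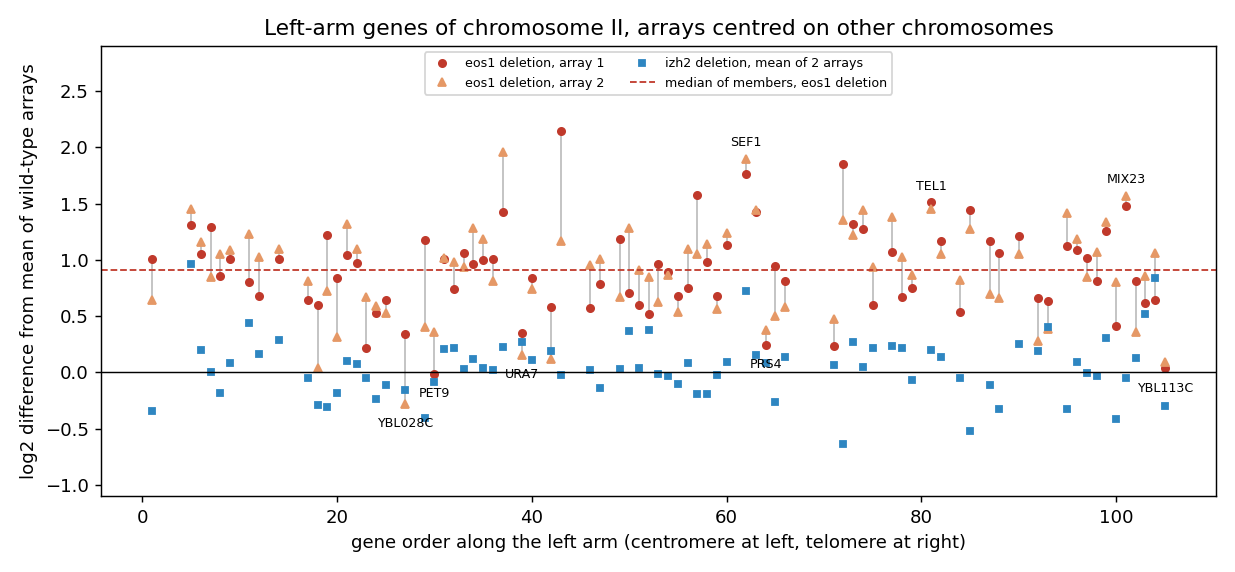
Log2 difference of each of the 79 members from the averaged wild type (vertical axis) in gene order from the centromere to the telomere (horizontal axis), for each eos1 deletion array and for the mean of the izh2 deletion arrays. The dashed line is the median member of the eos1 deletion at 0.91; the eos1 deletion points scatter about it along the whole arm while the izh2 deletion points scatter about 0.

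The shift ran along the whole arm. Cut into 5 runs of 15 or 16 members from the centromere outwards, the arm had medians of 0.99 (YBL001C to YBL024W), 0.83 (YBL025W to YBL043W), 0.91 (YBL046W to YBL067C), 0.89 (YBL068W to YBL093C) and 0.86 (YBL095W to YBL113C). The quartiles of the 5 runs overlapped. The run next to the centromere had the narrowest quartiles, 0.80 and 1.06, and the run from YBL025W to YBL043W reached lowest, with a first quartile of 0.51. That run holds YBL028C, PET9, URA7 and FUI1, members that come up below as the lowest against the arm.

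Around their median the members were spread about as widely as the genes of other chromosomes around theirs. The interquartile range of the log2 differences was 0.43 for the members and 0.45 for the other chromosomes, and 55.7% and 54.9% of the genes lay within 0.25 of their own median. A departure was then defined for each member as its difference minus the median of the members, on each eos1 deletion array. Those medians were 0.94 on either array. Departures are thus counted from 0.94 and not from 0.91, the median of the differences averaged over the arrays. The departures on the 2 arrays correlated across the 79 members at Pearson r = 0.66 (Spearman rho = 0.65). These points are genes, which are not replicates, and both arrays were set against the same wild-type arrays. The departures had the same sign on both arrays for 55 members, a count with the same limits that was not made for other genes. With the median of the members subtracted, both eos1 deletion arrays lay below both wild-type arrays for 18 members (22.8%, background 24.2%) and above them for 19 (24.1%, background 22.3%).

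A member was said to depart when its departure was at least 0.5 on the log2 scale (1.41-fold) in the same direction on each eos1 deletion array. By this rule 5 members departed low (6.33%) and 3 departed high (3.8%). Among the genes of other chromosomes, set against their own median, 4.19% departed low and 4.76% high. The shares of members thus lay near the background, and no member departed by 1 log2 unit on both arrays. On the low side PRS4 lay just inside the rule, with departures of -0.70 and -0.57, and ILS1 just outside, with -0.71 and -0.47. On the high side TEL1 lay just inside (0.57 and 0.51), and UBP13 (0.48 and 0.50) and APL3 (0.48 and 1.02) lay just outside. The counts moved when single arrays were left out: 12 members departed low and 7 high without the first eos1 deletion array, 8 and 7 without the second, where the rule asks for 1 array only, and 7 and 8 without the second wild-type array. Without the first wild-type array the counts stayed at 5 and 3, but only PET9 and YBL113C of the low members and MIX23 of the high members were among them. They were joined by YBL100W-A, YBL111C and YBL112C on the low side and by ATG8 and SCS22 on the high side. After quantile normalization 2 departed low, YBL028C and YBL113C. With the filter on wild-type arrays only 6 departed low, the 5 and YBL029W, and 4 departed high, TEL1, MIX23, APL3 and UBP13.

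The members that departed low were YBL028C, YBL113C, PET9, URA7 and PRS4. YBL028C, which the gene table lists without a symbol, had signals of 1856 and 1105 in the wild type, against 2249 and 1214 without EOS1 and 1119 and 1247 without IZH2. The strains overlapped, and its fold of 1.02 was the lowest of all members above the filter. PET9, the ADP/ATP carrier of the mitochondrial inner membrane, had 5239 and 5523 in the wild type, against 6604 and 7117 without EOS1 and 5400 and 4001 without IZH2. It was 1.13-fold higher than in the wild type, and on the centred scale its arrays overlapped.

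URA7 and PRS4 act in nucleotide supply. URA7, a CTP synthase, had signals of 3156 and 2445 in the wild type, against 4397 and 3184 without EOS1 and 3749 and 2519 without IZH2, a fold of 1.19 over the wild type. On the centred scale both eos1 deletion arrays exceeded the wild type and neither exceeded the first izh2 deletion array, and against the izh2 deletion its log2 difference was -0.0126. PRS4, a subunit of phosphoribosyl pyrophosphate synthetase, had 3254 and 2957 in the wild type, against 4562 and 4131 without EOS1 and 3295 and 2783 without IZH2, a 1.24-fold difference. Here the pairs of arrays lay close together, and both eos1 deletion arrays exceeded all others. FUI1, the uridine permease, missed the rule on the first array (departures -0.36 and -0.82). It had 1483 and 1439 in the wild type, against 2710 and 1629 without EOS1 and 2094 and 1116 without IZH2, and its eos1 and izh2 deletion arrays overlapped.

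YBL113C lies at the telomere end of the arm and is read by a probe set of the _s_at type, a type whose probes match more than 1 gene. It had signals of 2770 and 2644 in the wild type, against 3439 and 2964 without EOS1 and 2202 and 1858 without IZH2, a 1.05-fold difference. On the centred scale both eos1 deletion arrays lay above all others by a small margin. Of the members above the filter 7 are read by probe sets of the _s_at or _x_at type: YBL113C, YBL112C, YBL111C, PAU9, YBL100W-A, YBL100W-B and YBL005W-A. Part of their signal may come from genes elsewhere in the genome, and their median difference was 0.59, against 0.93 for the 72 members with other probe sets. YBL112C, YBL111C and YBL005W-A were also the members whose wild-type arrays lay farthest apart: their signals were 184 and 1004, 108 and 377, and 81.1 and 331. For these members the difference from the wild type depends on which wild-type array is used.

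Among the 12 lowest members were also POP8, ILS1, NCL1 and RRN10, which act in RNA processing, protein synthesis and rRNA transcription. ILS1, the cytosolic isoleucyl-tRNA synthetase, had signals of 5146 and 5163 in the wild type, against 7521 and 7357 without EOS1 and 5591 and 4424 without IZH2. Both eos1 deletion arrays lay above all others, and its fold was 1.28. NCL1, a tRNA methyltransferase, was 1.36-fold higher, with 2196 and 2502 in the eos1 deletion against 1549 and 1503 in the wild type. POP8, a subunit of RNase P and RNase MRP, was 1.25-fold higher, but its wild-type signals of 2121 and 1075 spanned the lower eos1 deletion signal of 1596. RRN10, a subunit of the upstream activating factor of RNA polymerase I, had 267 and 233 in the wild type and 447 and 387 without EOS1, a 1.48-fold difference. The other places among the 12 went to YBL100W-A and YBL100W-B, with folds of 1.38 and 1.43. Both are read by shared probe sets, so part of their signal may come from genes elsewhere.

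**Figure D2:**
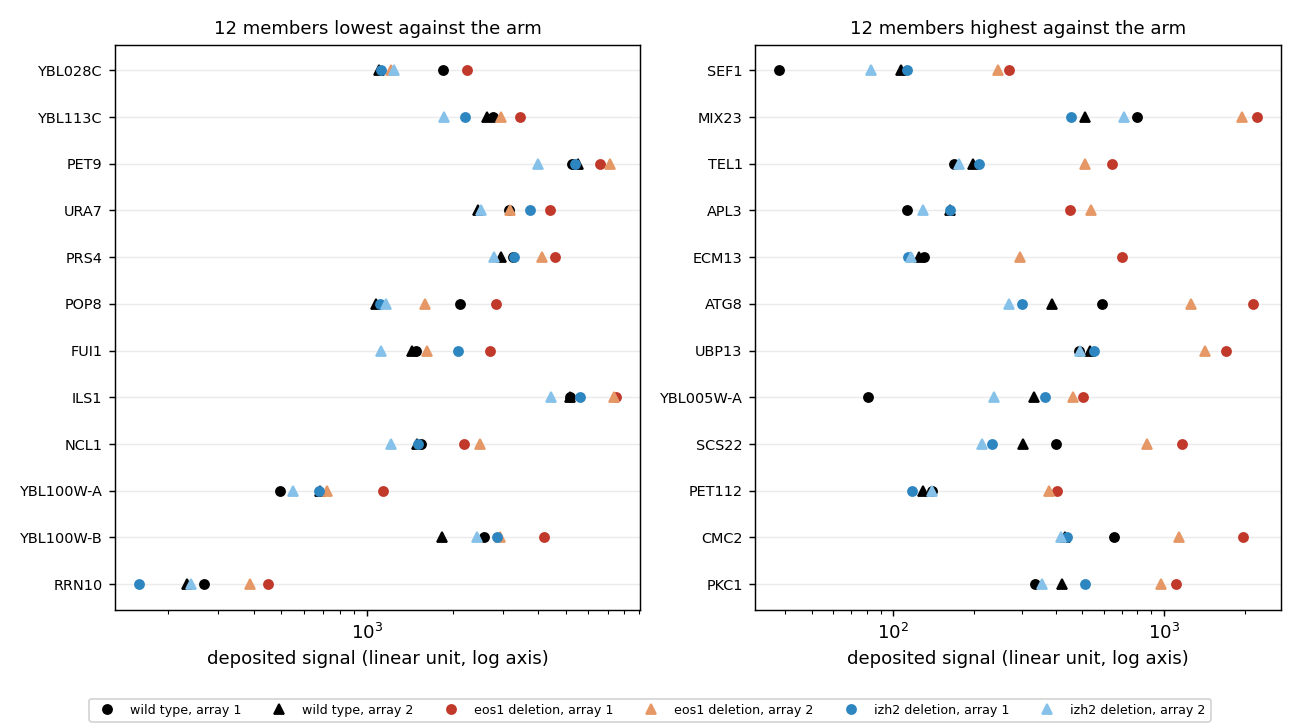
Deposited signal (horizontal log axes) of the 12 members lowest and the 12 highest against the median of the arm in the eos1 deletion, with 1 point for each of the 6 arrays. For PRS4 and ILS1 the eos1 deletion points sit just above the others, and for TEL1 and PET112 they are well apart from them.

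The members that departed high were SEF1, MIX23 and TEL1. TEL1, a protein kinase that controls telomere length, had signals of 168 and 197 in the wild type, against 642 and 511 without EOS1 and 209 and 176 without IZH2, a 2.79-fold difference. MIX23, a small protein of the mitochondrial intermembrane space, had 798 and 511 in the wild type, against 2206 and 1953 without EOS1 and 453 and 712 without IZH2, a 2.88-fold difference. In both genes the eos1 deletion arrays lay far above all others. SEF1, which encodes a zinc-cluster protein, had 38.0 and 107 in the wild type, against 269 and 245 without EOS1 and 113 and 83.1 without IZH2. It passed the filter only through the eos1 deletion arrays, and its first wild-type signal lay under the background of that array (72.0), so its place among the high members rests on the filter. Its fold of 3.56 has the same limit: the log2 difference of 1.83 was 1.02 without the first wild-type array, and its mean departure was 0.25 when the izh2 deletion was the reference.

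Other members high against the arm missed the rule on at least 1 array. APL3, the large subunit of the AP-2 clathrin adaptor, had signals of 113 and 162 in the wild type, against 449 and 541 without EOS1 and 162 and 129 without IZH2, a 3.23-fold difference. ATG8, the ubiquitin-like protein of the autophagosome membrane, had 593 and 387 in the wild type, against 2138 and 1263 without EOS1 and 299 and 268 without IZH2. It was 3.04-fold higher than in the wild type, and with its mean departure of 1.38 it stood highest of the 79 members above the filter when the izh2 deletion was the reference. ECM13 had 130 and 125 in the wild type but 699 and 294 in the eos1 deletion, so its 3.15-fold mean rests largely on the first array (departures 1.205 and 0.23). PKC1, the protein kinase C of the cell wall integrity pathway, was 2.46-fold higher, with 1108 and 977 in the eos1 deletion against 334 and 422 in the wild type. UBP13, a ubiquitin protease, was 2.70-fold higher, with 1697 and 1423 in the eos1 deletion and 488 to 555 on the other 4 arrays. PET112, which acts in charging mitochondrial glutaminyl-tRNA, had 403 and 376 in the eos1 deletion and 117 to 139.5 elsewhere. CMC2, linked to cytochrome c oxidase assembly, was 2.49-fold higher, but its eos1 deletion signals of 1970 and 1141 lay far apart.

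The members with the smallest mean departure over the 2 arrays were SEA4, RTG3 and SEC17. SEA4, a subunit of the SEA complex upstream of TORC1, had signals of 397 and 344 in the wild type, against 803 and 799 without EOS1 and 348 and 319 without IZH2, a 1.92-fold difference. RTG3, a transcription factor of the mitochondrial retrograde pathway, had 334 and 306 in the wild type and 802 and 592 without EOS1, a 1.91-fold difference. SEC17, which helps to take apart SNARE complexes after membrane fusion, had 1824 and 1337 in the wild type and 4414 and 2563 without EOS1, again 1.91-fold.

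Grouped by function or place, 3 groups lay on 1 side of the arm, counted from the mean departure over the 2 arrays. All 8 members above the filter that act in RNA processing and translation lay below the median of the arm, at a median departure of -0.34, and the brightest were ILS1, LSM2, MAP2 and PTH2 with folds of 1.28, 1.502, 1.602 and 1.52. All 9 members that act in DNA replication, chromosome structure and the cell cycle lay above it, at a median departure of 0.15, among them MCM2 (2.05-fold), ALK2 (2.02-fold), CDC27 (2.34-fold) and STU1 (2.18-fold). The 4 members next to the telomere lay below the arm (median -0.28), and all 4 have probe sets of the shared types. For YBL111C and YBL112C among them the side depends on the wild-type array. Both departed low without the first wild-type array and high without the second. The other groups lay on both sides. Membrane traffic had 7 of 14 members above and a median departure of 0.0024, with ERD2 at 1.73-fold, SFT2 at 2.20-fold and SEC17 at 1.91-fold. Transcription and chromatin had 5 of 11 above (median -0.01), signalling and protein turnover 5 of 9 (median 0.00095), and metabolism and transport 3 of 7 (median -0.09). These counts turn on small margins. ROX3, RTG3, SEC17 and SHP1, with differences of 0.93, count as below here but would lie above the median member of 0.91. The 6 mitochondrial members ran from PET9 at a departure of -0.77 to MIX23 at 0.58, with PIM1, the mitochondrial Lon protease, at 2.27-fold. Of the 9 members without a symbol away from the telomere, 1 lay above, YBL005W-A (median -0.15). Its mean departure was 0.44 against the wild type, whose signals were 81.1 and 331, and -0.44 against the izh2 deletion. These groups were drawn up with earlier results of these data known, and their counts describe these genes only.

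The departures went with the brightness of the probe sets. Members were sorted into 3 bins by their signal on the izh2 deletion arrays, which do not enter the difference. Signal serves here to sort probe sets and does not rank the genes by RNA level. The median difference was 1.09 in the dimmest bin (27 genes), 0.97 in the middle bin (26 genes) and 0.70 in the brightest bin (26 genes). Genes of other chromosomes in the same ranges of signal had medians of 0.18, 0.01 and -0.16, so the lean from dim to bright was also present off chromosome II. The excess of the members over other chromosomes was 0.92, 0.96 and 0.87 in the 3 bins. Across members, departure and mean log2 signal in the izh2 deletion correlated at Pearson r = -0.57 (Spearman rho = -0.52, 79 genes). Across the 4555 genes of other chromosomes the same correlation with the difference was -0.37 (rho = -0.43). Genes are not replicates, and both measures share the probe set.

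**Figure D3:**
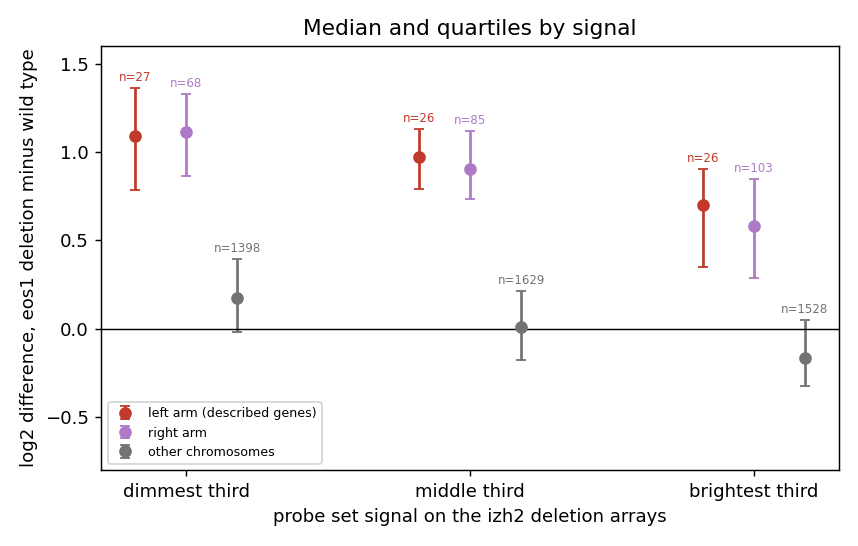
Median (points) and quartiles (bars) of the log2 difference (eos1 deletion minus wild type), in 3 bins of probe set signal on the izh2 deletion arrays, for the members, the right arm and the other chromosomes. In each bin the members lie 0.87 to 0.96 above the other chromosomes, and all 3 groups lean down from dim to bright.

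When each gene was instead centred on the 200 genes of other chromosomes nearest to it in signal, a setting added after the data were examined, the median of the members was 0.90. Then 1 member departed low, YBL113C, against a background of 3.89%, and 2 departed high, SEF1 and MIX23, against 3.32%. YBL028C, PET9, URA7 and PRS4 no longer met the rule, with mean departures from -0.81 for YBL028C to -0.47 for PRS4, and neither did TEL1, at 0.41. The RNA processing and translation members had a median departure of -0.20 on this scale, with 7 of 8 below the arm, and the DNA and cell cycle members 0.07, with 7 of 9 above.

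Several members encode subunits of complexes whose other subunits lie on other chromosomes. The members come from an arm chosen because it was higher in this contrast. Their excess over such partners therefore follows from that choice, and the values are a description only. For 14 complexes with a member and a partner elsewhere above the filter, the member exceeded the median of its partners in 14, by 0.49 to 1.27 on the log2 scale (median 0.92). In 13 of them it exceeded every such partner, and the exception was POP8, below 1 of its 5 partners. Partners below the filter were left out. The 76 partners on other chromosomes had a median difference of -0.02, from -0.53 to 0.75. For the MCM helicase that unwinds replication origins, MCM2 had a difference of 1.03 and its right-arm partner MCM7 had 0.98, while MCM3 to MCM6 ran from -0.14 to 0.21. For DNA polymerase alpha-primase, POL12 had 1.09 and its 3 partners -0.13 to 0.04. For the anaphase-promoting complex, CDC27 had 1.23 and 11 partners -0.33 to 0.57.

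Transcription and RNA complexes are described in the same way. ROX3 of the Mediator had a difference of 0.93 against a median of -0.03 over 20 partners, while SRB6 and MED8, Mediator subunits of the right arm, had 0.79 and 1.25. HIR1, a corepressor of histone genes, had 1.05, and HPC2, its partner on the right arm, had 0.93. HAP3 of the CCAAT-binding complex (0.58), SAS3 of the NuA3 acetyltransferase (0.75), RRN6 of the RNA polymerase I core factor (1.06) and LSM2 of the LSM ring (0.59) each exceeded all their partners on other chromosomes. In the AP-2 adaptor, APL3 had 1.69 and its partners -0.13 to 0.57. PET112 of the mitochondrial glutamyl-tRNA amidotransferase had 1.36 and its 2 partners 0.05 and 0.13. The partner of SEC17, SEC18, lies on the right arm and had 0.85. The 7 partners on the right arm ran from 0.79 to 1.25. BRN1 of condensin lay below the filter, at signals of 8.29 to 18.6 on all 6 arrays, and gives no value.

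**Figure D4:**
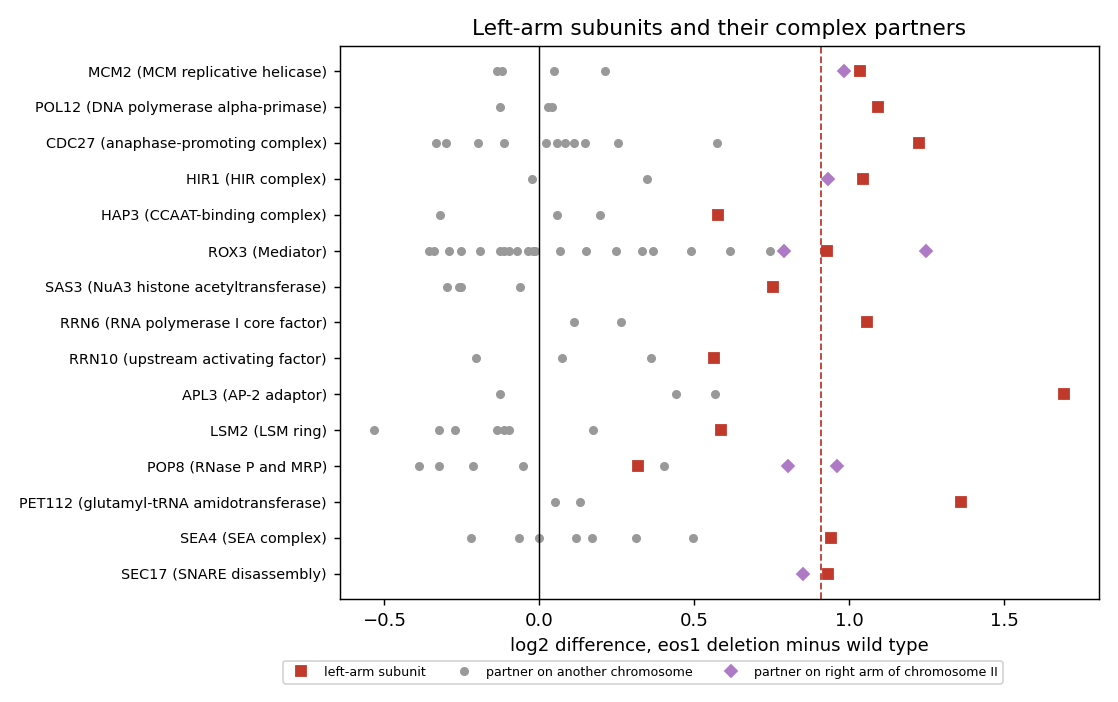
Log2 difference, eos1 deletion minus wild type (horizontal axis), for 15 left-arm subunits (squares), their partners on other chromosomes (circles) and their partners on the right arm (diamonds), with 1 line per complex. The dashed line is the median member at 0.91. In the 14 complexes with circles, the square lies to the right of them except in RNase P and MRP, where 1 circle lies beyond POP8. The line of SEC17 holds no circle.

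The 9 members below the filter were YBL008W-A, FMT1, YBL029W, YBL044W, MOH1, YBL071C-B, AAR2, BRN1 and YBL100W-C. MOH1, a gene linked to stationary phase, had signals of 30.9 and 39.2 in the wild type and 29.1 and 17.7 in the izh2 deletion, not above the background of those arrays, and 245 and 79.7 in the eos1 deletion. With its wild-type signals set at background it was 1.94-fold higher in the eos1 deletion, and the arrays of that strain differed widely. YBL071C-B was above background in the eos1 deletion alone (137 and 92.8, against 26.1 to 54.0 elsewhere). By the same measure it was 1.56-fold higher than in the wild type. Background was itself 124 and 71.1 on the eos1 deletion arrays, against 72.0 and 56.6 on the wild-type arrays. Neither fold is therefore a lower bound, and the share of that gap in them was not tested. AAR2, a splicing factor, had 136 and 130 in the eos1 deletion against 24.5 and 67.5 in the wild type. On the first eos1 deletion array YBL071C-B and AAR2 lay only just above the background of 124. YBL029W had 91.7 and 60.7 in the eos1 deletion, below background there, and 84.0 and 104 in the wild type, above it. On the centred scale both eos1 deletion arrays lay below both wild-type arrays, with a measured log2 difference of -0.50. The other 5 lay below background on all 6 arrays.

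The comparison of the izh2 deletion with the wild type was not used to choose the members and was tested. With limma across the 4907 genes above the filter, 0 of the 79 members passed an adjusted p of 0.05 (smallest adjusted p = 0.999), and 2 had an unadjusted p under 0.05, both lower. Over all genes 0.0204% were called lower, which is IZH2 itself, and 0% higher, and 1.57% and 0.754% had an unadjusted p under 0.05 in the lower and the higher direction. The members' median difference was 0.04 (quartiles -0.11 and 0.20), against 0.01 for other chromosomes. Both izh2 deletion arrays lay above both wild-type arrays for 11 members and below for 7, that is 13.9% and 8.86%, against 13.5% and 12.2% of all genes above the filter.

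The 3 members with the smallest p in the izh2 deletion were SCS22, ATG8 and YBL100W-B. SCS22, a protein of contacts between the endoplasmic reticulum and the plasma membrane, had signals of 400 and 302 in the wild type and 233 and 213 in the izh2 deletion, a log2 difference of -0.52 ± 0.19 (SE; limma, adjusted p = 0.999). ATG8 had a difference of -0.64 ± 0.24 (SE; limma, adjusted p = 0.999), and YBL100W-B, with 2566 and 1835 in the wild type against 2862 and 2435, one of 0.40 ± 0.18 (SE; limma, adjusted p = 0.999). In SCS22 and ATG8 both izh2 deletion arrays lay below both wild-type arrays. Without the second wild-type array, on which YBL112C, YBL111C and YBL005W-A were brightest among the wild-type arrays, these 3 passed in the izh2 deletion, at log2 differences of 2.12, 1.48 and 2.04 (limma, adjusted p = 0.0069, 0.047 and 0.015). These p-values rest on 1 wild-type array, which is assumed to vary like the arrays of the other strains, and for these members that array is the one that stands apart: its signals of 184, 108 and 81.1 lay below those of the other 5 arrays. All 3 are read by shared probe sets.

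Against the izh2 deletion in place of the wild type, the eos1 deletion gave a median member of 0.89. Both comparisons use the same eos1 deletion arrays. With the izh2 deletion as the reference 5 members departed low (URA7, PRS4, YBL100W-B, YBL111C and YBL112C) and 4 high (ATG8, SCS22, ECM21 and MIX23), against 4.98% and 6.41% of the genes of other chromosomes. URA7 and PRS4 departed low and MIX23 high with either reference. ECM21, an arrestin-related adaptor for endocytosis of transporters, had signals of 331 and 430 in the wild type, against 1020 and 1037 without EOS1 and 315 and 245 without IZH2.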

How the data were processed

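Each array holds 10928 probe sets with a deposited signal intensity, which is linear. The submitters' processing notes name GCOS, with no version, and the design text of the series names GeneSpring 7.3.1 for the authors' statistics. The sources used here do not say whether or how the authors scaled the arrays to each other. Scaling would change array medians, so arrays were centred here.

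Names, chromosomes and gene order came from the annotation of the platform and the RefSeq gene table of assembly R64: 5498 probe sets have 1 S. cerevisiae gene. For 47 genes with more than 1 probe set, none of them a member, the brightest was used. The deposited signals were floored at 1 and transformed to log2. A gene was kept if its mean over the 6 arrays exceeded the 95th percentile of the probe sets without such a gene (91.8 in signal), 90.1% of genes. Background on 1 array was that percentile on it, and the folds given for members below the filter set dim wild-type signals at it. Each array was centred on the median of kept genes of other chromosomes. The izh2 deletion was tested with limma 3.58.1 in R 4.3.3 (lmFit and eBayes with an intensity trend, all 6 arrays, 3 residual and 6.00 prior degrees of freedom, two-sided, Benjamini-Hochberg over 4907 genes), a procedure tested on simulated data. P values measure the spread between arrays, which the series describes as independent experiments. The number of arrays limits the precision.

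Named members were the deletion's 12 lowest and 12 highest against the arm (those departing by 0.5 on both arrays first, then those with 1 sign on both). Added to them were the 3 with the smallest mean departure in either direction, the 3 with the smallest p in the izh2 deletion and the complex subunits. Group examples were the brightest members. Other members are named for a range, a count or a threshold, after their values were seen. Members, groups, complexes and tests were chosen with earlier results of these data known. No sequences were used here, and the planned search of promoters for motifs was not made.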

Additional observations from a re-analysis of the deposited data

How the results depend on the processing

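The median member of the eos1 deletion was 1.08 with signals as deposited, 0.85 with arrays centred on all kept genes, 0.88 after quantile normalization, 0.92 with a filter 1 log2 unit higher, 0.89 with the filter on wild-type arrays only, 0.89 with log2(signal + 16), 0.89 against the izh2 deletion, 0.93 without shared probe sets, 0.90 with genes of like signal as the centre and 0.86 to 0.94 without single arrays. Low departures numbered 2 after quantile normalization, 1 with genes of like signal as the centre, 0 at 1 log2 unit and 5 to 12 without single arrays. High departures numbered 0 at 1 log2 unit, 2 with log2(signal + 16), without shared probe sets and with genes of like signal as the centre, and 3 to 8 without single arrays. The members behind the counts changed too. Of SEF1, MIX23 and TEL1, SEF1 was lost with the stricter filter and the filter on wild-type arrays only, TEL1 with no filter, quantile normalization and the 3 settings that gave 2, MIX23 without the second wild-type array, and SEF1 and TEL1 without the first and against the izh2 deletion. The members that departed low were 12 without the first and 8 without the second eos1 deletion array, and 7 departed high without either of them. These settings ask for the departure on 1 array. Without the second wild-type array 8 departed high. URA7 turned to -0.0126 against the izh2 deletion. In the izh2 deletion 0 members passed in all settings run except without the second wild-type array (3 members, the range without single arrays being 0 to 3). The cause of these changes was not tested. Same-numbered arrays did not deviate together in every pair of strains (r = 0.48 for wild type and eos1 deletion, -0.34 for wild type and izh2 deletion, 0.09 for the deletions), so the number was not taken as a pairing. With the replicate number as a block 0 members passed and 3 had an unadjusted p under 0.05. With crossed numbers, added after the data were examined, 0 passed and 6 did.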
